A study of Mus musculus with 16 samples.

Results

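T cells of visceral adipose tissue (VAT) were compared with T cells of lymph nodes (LN) in lean mice, gene by gene across the transcriptome, by RNA sequencing. The comparison takes the 4 VAT libraries and the 4 LN libraries from animals on standard chow, which is 8 of the 16 libraries of the series, chosen by their labels. The other 8 come from the same tissues of mice on a high-fat diet (HFD, 60% of kcal as fat) and enter below only where the tissue difference on chow is set beside that on HFD. All mice were OT-I, which carry a transgenic T cell receptor of CD8 T cells specific for a peptide of ovalbumin, and all had been on their diet for 8 weeks. The labels call the cells freshly isolated, while the design text says that T cells were cultured overnight and then sorted. A second header line of the count table tags all columns Neg-OVA, a term with no definition in the labels. The 4 libraries of a group are labelled as biological replicates, but no label says whether each is 1 mouse or a pool, and strain background, age and sex were not given in the sources used here. The p-values therefore measure the spread between these libraries.

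As background, a naive CD8 T cell circulates through lymph nodes. The chemokine receptor CCR7 helps to bring it in, and the sphingosine phosphate receptor S1PR1 lets it out. A T cell that has met antigen or inflammation loses these receptors, gains receptors for inflamed tissue and the granzymes and perforin with which it kills, and may stay in the tissue as a resident memory cell that carries CD69. Type I and type II interferons act on nearly every cell through STAT transcription factors, which bind a short element in the promoters of interferon-stimulated genes. Visceral fat holds T cells beside its macrophages, and CD8 T cells in fat are studied for their part in inflammation of that tissue in obesity.

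The lean libraries held 42993946 to 65957407 counts, so that 3 counts, taken here as the floor of detection, were 0.0437 to 0.0722 CPM (counts scaled to library size) in one library. VAT replicate 1 stood apart. For each library, genes whose median over the rest of its group reached 10 CPM were taken, and missing meant 3 counts or fewer. In VAT replicate 1, 13.3% were missing, against 0.818% to 1.76% in the other VAT libraries and 1.30% to 4.95% in LN. All 11 T cell identity markers were present at 1 CPM or more in at least 1 library of each tissue, and all 8 adipocyte markers and all 7 neutrophil markers were under 1 CPM in all 8 libraries. The summed level of 12 B cell markers was 1653 to 3264 CPM in LN and 85.7 to 220.7 CPM in VAT, and that of 8 natural killer (NK) cell markers was 13.1 to 39.7 CPM in LN and 358 to 682 CPM in VAT. Neither pair of ranges overlapped (exact permutation test, two-sided, p = 0.0286, the smallest that 4 against 4 libraries can give, 0.0643 after Benjamini-Hochberg adjustment over 9 library measures). Markers of adipose stroma summed to 120.1 to 234 CPM in LN and 43.4 to 96.0 CPM in VAT, with the same p. Most of that sum came from Pecam1 (70.2 to 167 CPM in LN, 29.0 to 67.5 CPM in VAT) and Gsn (48.7 to 74.0 CPM in LN, 9.90 to 16.5 CPM in VAT). Of its members 8 of 11 fibroblast and mesothelial and 6 of 8 endothelial markers were under 1 CPM in all 8 libraries, and Col3a1, Lum and Dpt had no count. Col1a1 reached 0.0187 CPM in LN and 11.9 CPM in VAT, and Pdgfrb reached 18.7 CPM in LN and 1.96 CPM in VAT. The summed level of 12 macrophage markers was 39.3 to 188 CPM in LN and 39.7 to 78.7 CPM in VAT, and these ranges overlapped (p = 0.257, exact permutation test). The sum hides 2 genes that separated the tissues in opposite directions, Apoe (39.3 to 182 CPM in LN, 0 to 12.3 CPM in VAT) and Cd68 (0 to 6.07 CPM in LN, 18.9 to 78.6 CPM in VAT). The macrophage markers C1qa and Itgam had no count in any of the 8 libraries, and 6 of the 12 were under 1 CPM in all 8. Lyz2, Fcgr1, Mrc1 and C1qc reached 17.8, 5.31, 1.81 and 1.37 CPM in VAT and at most 0.0719 CPM in LN. In each of them the lowest VAT library was at 0.0226 CPM or less. In bulk RNA, fewer cells of a type and less RNA per cell cannot be told apart.

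**Figure D1:**
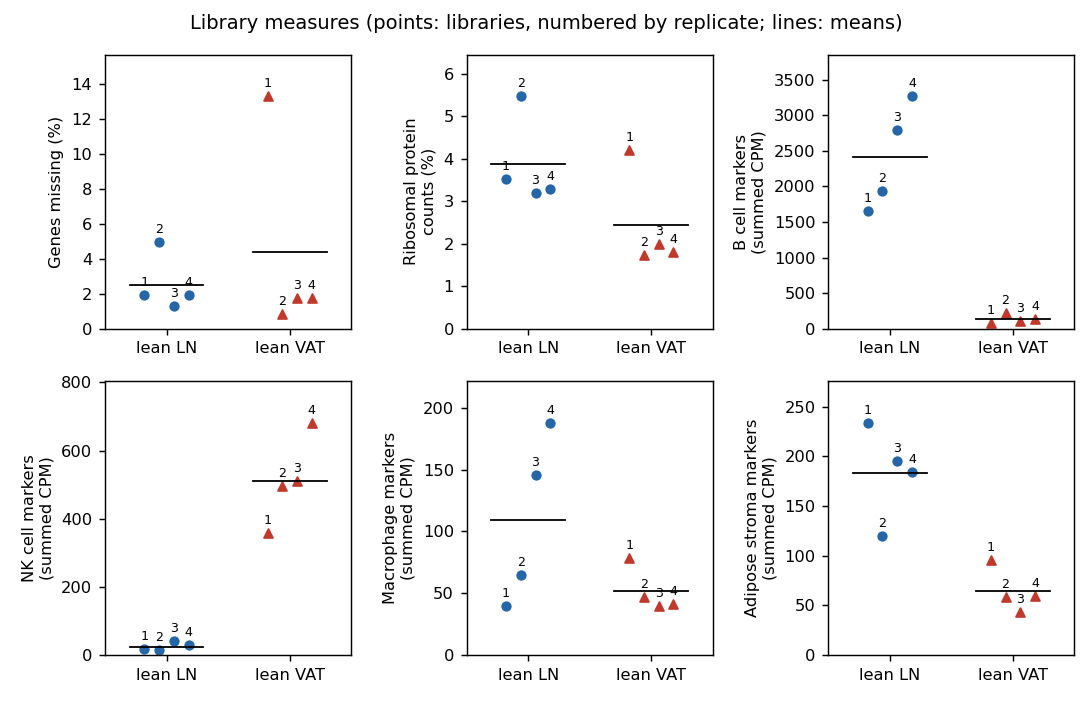
Measures of each lean library, 6 in all, with a vertical axis from 0 in each panel; points are libraries, numbered by replicate, and lines are means of 4. In VAT replicate 1, 13.3% of the genes examined were missing (3 counts or fewer). The sums of B cell and of NK cell markers did not overlap between the tissues.

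Of 15675 genes tested, 476 (3.04%) passed, of which 332 (2.12%) were higher and 144 (0.919%) lower in VAT than in LN at an adjusted p under 0.05 (edgeR quasi-likelihood F-test with all 16 libraries in the fit, Benjamini-Hochberg adjustment over all genes tested). These are the genes said below to have risen or fallen. The median change of all genes tested was -0.0029 on the log2 scale. The rises had a median of 2.53 on the log2 scale, and 97 of them were over 16-fold. The falls had a median of -2.17, and 53 of them were over 16-fold. An average of at least 100 CPM was reached in VAT by 238 of the 332 rises and in LN by 94 of the 144 falls. The same share over all genes tested was not taken, so these counts are not read as a trait of the called genes. Among the falls 18 were receptor or immunoglobulin segments, against 3 among the rises. In 458 of the 476 called genes no library of one tissue overlapped a library of the other, which was true of 12.9% of all genes tested (7.24% higher and 5.7% lower in every VAT library). Without VAT replicate 1, 337 genes rose and 173 fell.

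**Figure D2:**
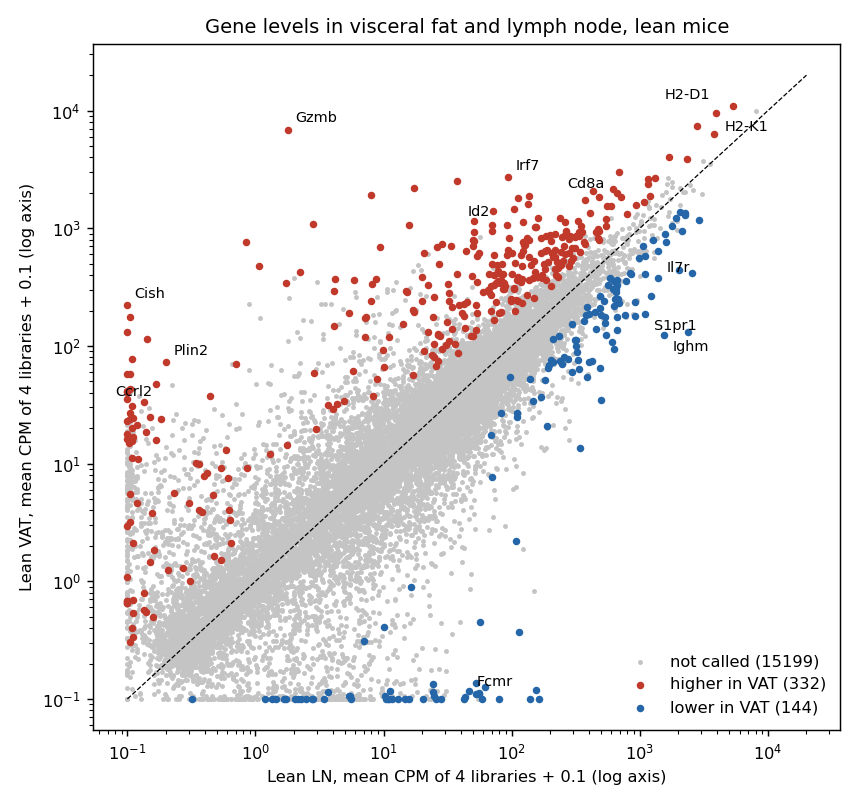
Mean CPM of the 4 lean VAT libraries against the mean of the 4 lean LN libraries for the 15675 genes tested, both on log axes after adding 0.1; each point is a gene, and the dashed line marks equal levels. The 332 red genes were higher and the 144 blue genes lower in VAT, and genes of the left and lower edges had almost no counts in one tissue.

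Interferon-stimulated genes gave more rises than any other list used. Of 43 antiviral interferon-stimulated genes tested, 30 rose and 1 fell, with a median change of 4.20 on the log2 scale against -0.0029 over all genes. In 38 of the 43 every VAT library was above every LN library, against 7.24% of all genes tested. Irf7, the transcription factor that amplifies type I interferon, stood at 78.7, 130.5, 101 and 64.3 CPM in LN (replicates 1 to 4, the order used throughout) and at 2472, 2849, 2788 and 2779 CPM in VAT, 29.0-fold higher (log2 4.86 ± 0.33, SE; adjusted p = 3.43e-06, edgeR). The tissues did not overlap, and the lowest VAT library was many times the highest LN library. Zbp1, a sensor of left-handed nucleic acid that can start necroptosis, was at 79.4, 97.2, 56.7 and 53.4 CPM in LN and 1632, 1382, 1269 and 1362 CPM in VAT, 19.7-fold higher (adjusted p = 7.54e-06, edgeR). Here too all 4 VAT libraries lay above all 4 LN libraries.

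Single antiviral effectors showed the same separation. Bst2, which encodes the surface protein tetherin that holds budding virus on the cell, was at 34.4, 96.8, 28.1 and 43.1 CPM in LN and 1248, 866, 697 and 898 CPM in VAT, 18.3-fold higher (adjusted p = 8.24e-05, edgeR). Isg20, an exonuclease of RNA, rose 29.7-fold from 20.6 ± 14.5 to 611 ± 213 CPM (SD, n = 4 libraries; adjusted p = 0.00041). Usp18, which removes ISG15 from proteins and limits the interferon receptor, rose 15.4-fold (adjusted p = 0.00045). For some genes LN had next to nothing. Ube2l6, the enzyme that loads ISG15, had no count in any LN library and 247, 81.7, 121 and 77.5 CPM in VAT, at least 2489.9-fold higher against the floor of 3 counts per library (adjusted p = 0.00019). Isg15 itself, a small modifier resembling ubiquitin, was at 0, 0, 2.98 and 0 CPM in LN and 1207, 570.4, 649.9 and 603 CPM in VAT (adjusted p = 0.0131). Ifit3, an RNA-binding antiviral protein, was at 44.4, 62.8, 34.0 and 8.66 CPM in LN and 1384, 2578, 3177 and 2992 CPM in VAT (adjusted p = 0.00521). In these genes every VAT library was above every LN library. Ifi27, a mitochondrial protein of the response, was the member that fell, from 183 ± 79.1 to 50.8 ± 19.5 CPM (SD, n = 4 libraries; adjusted p = 0.0145). The notes of lost calls, here and below, leave out a fit that pairs libraries by replicate number (the replicate block), which is given at the end. Isg15 lost its call in a fit of the lean libraries alone (adjusted p = 0.0763). Ifit3 lost its call by limma-voom (adjusted p = 0.267). Ifi27 lost its call without VAT replicate 2 (adjusted p = 0.0505) and in a fit of the lean libraries alone (0.0694).

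Promoters of the genes that rose were read for the interferon-stimulated response element, the site bound by STAT and IRF complexes. It was searched as GAAA, any 2 bases and GAAA on both strands, overlapping matches included, in RefSeq promoters of the build GRCm38.p6 (250 bases before to 50 after the start), which were matched to genes by symbol for 9314 of the genes tested. Printed here are those of Phf11b, Bst2, Ifit3 and Isg15, 5′ to 3′ on the strand of the gene with the matches in capitals. Phf11b had the smallest adjusted p of the antiviral list, and the values of the others stand above. They were picked by smallest p from called antiviral genes with a single promoter and a match. The element is thus present in them by choice. Positions are chr14:59341281-59341580 (minus strand), chr8:71537423-71537722 (minus strand), chr19:34583279-34583578 (plus strand) and chr4:156200769-156201068 (minus strand).
Phf11b: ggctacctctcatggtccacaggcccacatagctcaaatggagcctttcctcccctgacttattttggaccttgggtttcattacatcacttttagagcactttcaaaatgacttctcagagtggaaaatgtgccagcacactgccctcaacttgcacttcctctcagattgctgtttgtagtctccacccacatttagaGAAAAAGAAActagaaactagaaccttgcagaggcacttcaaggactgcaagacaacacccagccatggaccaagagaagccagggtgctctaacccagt
Bst2: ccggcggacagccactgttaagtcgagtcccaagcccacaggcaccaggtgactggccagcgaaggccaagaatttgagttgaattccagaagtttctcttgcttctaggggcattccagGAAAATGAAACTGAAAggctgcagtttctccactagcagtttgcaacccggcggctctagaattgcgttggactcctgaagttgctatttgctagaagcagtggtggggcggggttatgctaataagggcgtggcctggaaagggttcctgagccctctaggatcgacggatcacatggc
Ifit3: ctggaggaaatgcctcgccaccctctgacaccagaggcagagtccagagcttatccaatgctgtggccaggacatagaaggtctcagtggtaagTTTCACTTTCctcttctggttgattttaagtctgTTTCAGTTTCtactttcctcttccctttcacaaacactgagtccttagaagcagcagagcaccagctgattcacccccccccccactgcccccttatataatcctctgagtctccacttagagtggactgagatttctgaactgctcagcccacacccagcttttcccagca
Isg15: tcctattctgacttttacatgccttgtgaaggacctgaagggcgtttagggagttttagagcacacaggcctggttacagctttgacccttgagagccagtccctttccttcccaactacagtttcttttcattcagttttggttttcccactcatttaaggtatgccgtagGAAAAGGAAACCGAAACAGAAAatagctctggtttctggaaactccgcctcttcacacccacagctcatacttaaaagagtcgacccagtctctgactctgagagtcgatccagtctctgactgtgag
In Ifit3 the capitals read as the reverse complement of the element. The element was present in 17.3% of 301 promoters of the genes that rose, in 2.84% of 141 promoters of the genes that fell and in 3.29% of the 11824 promoters of genes tested. In the antiviral list it was in 43.9% of 41 promoters. Of the 48 rises that carried it, 28 were on none of the interferon lists. Among these were members of interferon-related families that the lists hold only in part. They included Ifi211, Ifi213 and Mndal of the PYHIN family and further members of the PHF11 and TRIM30 families. Others were the class I genes B2m, H2-T22 and H2-T23 and the proteoglycan gene Srgn. All were named here after the search. An AP-1 site, TGANTCA on both strands, was in 14.3% of promoters of rises, 4.96% of promoters of falls and 5% of promoters of genes tested. A match is a description of the letters only, and binding was not measured.

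Phf11b, a member of a plant homeodomain finger family, was at 65.5, 101, 53.8 and 59.4 CPM in LN and 449, 500.0, 529.8 and 495 CPM in VAT, 7.05-fold higher (log2 2.82 ± 0.18; adjusted p = 1.66e-06, edgeR). All 4 PHF11 genes of the table rose. Reads can be split wrongly between near-identical copies of this family and of the families that follow, so their single values are uncertain. Of 12 PYHIN genes, which sense DNA in cytosol and nucleus, 10 rose with a median of 2.09 on the log2 scale. Ifi213 of this family was at 158, 191, 192 and 139 CPM in LN and 503, 844, 1086 and 898 CPM in VAT (adjusted p = 3.54e-05). Of 17 interferon-inducible GTPases, which attack the vacuoles of intracellular microbes, 13 rose and none fell, with a median of 2.61. Tgtp2 of the IRG branch was at 136, 119, 123 and 113 CPM in LN and 543, 1338, 1304 and 1338 CPM in VAT, 9.22-fold higher (adjusted p = 1.66e-05). Gbp10 of the guanylate-binding branch was at 2.29, 1.15, 10.0 and 2.50 CPM in LN and 32.4, 193, 161 and 201 CPM in VAT (adjusted p = 0.00124). In both genes VAT replicate 1 was the lowest VAT library and still above LN. The response element was in 90% of the 10 promoters of this list. On the list of Schlafen and PARP families, 6 of 15 rose, among them Slfn1, 2.69-fold (adjusted p = 0.0019), and Parp10, 5.18-fold (adjusted p = 0.0014). The PYHIN and PHF11 groups, with Bst2, Isg15, Ifit3, Ifi213 and Gbp10 as examples, were chosen after their values were seen. On the list of interferon regulatory factors and nucleic acid sensors 4 of 21 rose, and beside Irf7 and Zbp1 these were Ddx58, the RIG-I sensor of viral RNA, 5.75-fold (adjusted p = 0.000504), and Irf9, a DNA-binding partner of STAT proteins, 3.92-fold (adjusted p = 0.0454). Irf9 lost its call without LN replicates 1, 3 or 4 or VAT replicates 2, 3 or 4 (adjusted p = 0.101 to 0.146), with DESeq2-type (RLE) scaling (0.0563), with no filter on low counts (0.103) and in a fit of the lean libraries alone (0.0874).

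**Figure D3:**
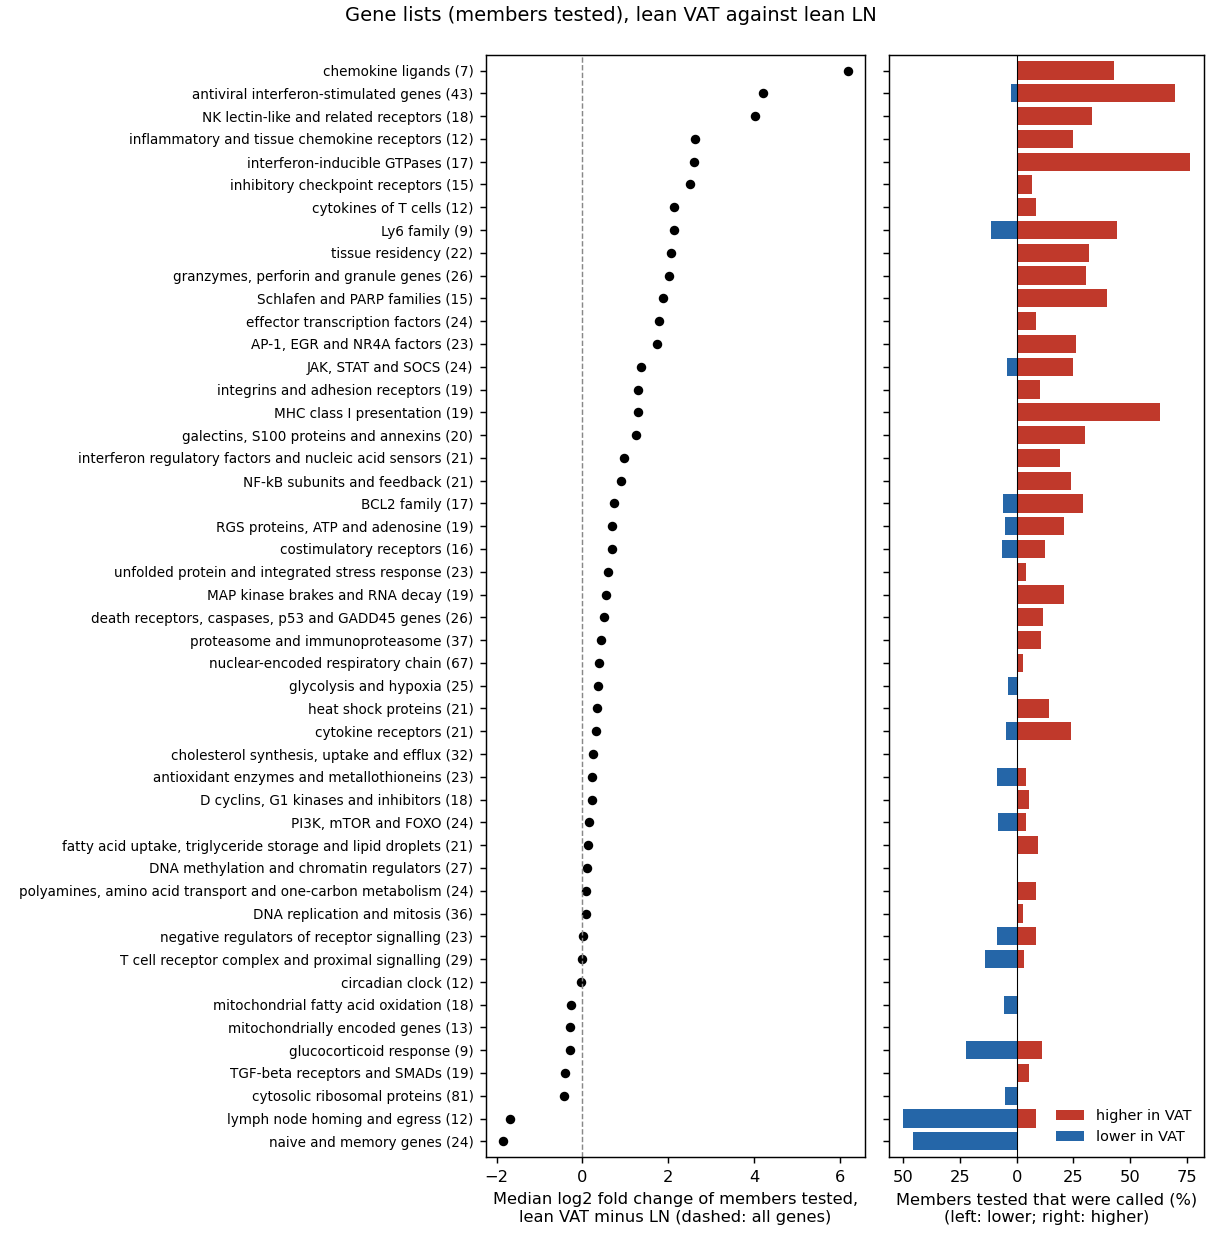
Left, the median log2 fold change of each gene list (number of members tested in brackets), with the median of all genes as a dashed line; right, the percent of members tested that were called higher (right of 0) or lower (left of 0) in VAT. Antiviral genes and GTPases had 30 of 43 and 13 of 17 members higher, while naive genes had 11 of 24 members lower.

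Of 19 genes of antigen presentation by MHC class I 12 rose and none fell, with a median of 1.29 on the log2 scale. H2-T23, which encodes the ligand of the NKG2A receptor, was at 595, 782, 697 and 603 CPM in LN and 1954, 1996, 1950.0 and 2024 CPM in VAT, 2.96-fold higher (log2 1.57 ± 0.09; adjusted p = 1.46e-06, edgeR). H2-D1, a classical heavy chain, was at 5274, 5115, 6089 and 4910.2 CPM in LN and 11181, 11574, 10521 and 10612 CPM in VAT (2.05-fold, adjusted p = 7.66e-06). H2-K1, the other classical chain, was at 4245, 3949.6, 4182 and 3274 CPM in LN and 11935, 9174, 8736 and 8427 CPM in VAT (2.45-fold, adjusted p = 2.67e-05). These shifts were small in fold and separated the tissues without overlap. B2m, the light chain shared by all class I molecules, rose 2.63-fold (adjusted p = 6.52e-05), and Tapbp, which edits the peptides they carry, rose 2.20-fold (adjusted p = 0.00316). B2m and Tapbp were named after their values were seen. H2-K1 lost its call by limma-voom (adjusted p = 0.164). B2m lost its call by limma-voom (adjusted p = 0.978). Of the proteasome list, 4 of 37 rose. The subunits of the immunoproteasome Psmb10 (2.95-fold, adjusted p = 0.00262) and Psmb8 (2.62-fold, adjusted p = 0.0111) and the activator Psme1 (2.11-fold, adjusted p = 0.01) were among them. Psmb8 lost its call in a fit of the lean libraries alone (adjusted p = 0.0692). Psme1 lost its call in a fit of the lean libraries alone (adjusted p = 0.0763).

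Of 12 genes of lymph node homing and egress, 6 fell and 1 rose, with a median of -1.68 on the log2 scale. S1pr1, the exit receptor, was at 1238, 992, 934 and 1187 CPM in LN and 99.7, 251, 146 and 253 CPM in VAT, 5.81-fold lower (log2 -2.54 ± 0.31, SE; adjusted p = 0.000277, edgeR). Klf2, a transcription factor that drives its gene, was at 983, 726, 942 and 1007 CPM in LN and 359, 217, 133 and 234 CPM in VAT, 3.88-fold lower (adjusted p = 0.00041), and was named after its values were seen. Ccr7, the entry receptor, was at 1087, 972, 790.5 and 832 CPM in LN and 181, 184, 137 and 213 CPM in VAT, 5.15-fold lower (adjusted p = 6.52e-05). In all 3 genes the highest VAT library was below the lowest LN library. B cells, whose markers were higher in LN as given above, use several of these genes as well, and their part in the result was not tested. The member that rose was Itgal, the alpha chain of the integrin LFA-1, 2.30-fold (adjusted p = 0.0482). Itgal lost its call without LN replicates 1, 2, 3 or 4 or VAT replicates 2, 3 or 4 (adjusted p = 0.0691 to 0.144), with DESeq2-type (RLE) scaling (0.0832), with no filter on low counts (0.143) and in a fit of the lean libraries alone (0.112).

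Of 24 naive and memory genes 11 fell and none rose, with a median of -1.84. Il7r, the receptor for the survival cytokine IL-7, was at 1808, 1333, 1103 and 1299 CPM in LN and 293, 450.4, 459 and 312 CPM in VAT, 3.66-fold lower (adjusted p = 0.000342, edgeR). Lef1, a transcription factor of naive cells, was at 798, 646, 789 and 840.3 CPM in LN and 178, 188, 90.9 and 275 CPM in VAT, 4.20-fold lower (adjusted p = 0.00203). Slamf6, a surface receptor of naive and stem-like memory cells, was at 462, 291, 554 and 392.04 CPM in LN and 26.1, 73.3, 68.1 and 127 CPM in VAT, 5.76-fold lower (adjusted p = 0.00276), and was named after its values were seen. The tissues did not overlap in any of these genes. Tcf7, which encodes TCF-1, was at 2299.8, 1931, 1957 and 2281 CPM in LN and 398, 1249, 1098 and 1050.4 CPM in VAT (2.23-fold lower, adjusted p = 0.0178), with VAT replicate 1 well below the other VAT libraries. Tcf7 lost its call without LN replicates 1 or 4 (adjusted p = 0.0531 to 0.0553) and in a fit of the lean libraries alone (0.147). Cd27, a costimulatory receptor of naive and early memory cells, fell 2.16-fold (adjusted p = 0.00236). Cd44, the usual surface mark of antigen experience, was at 8.19, 0, 33.7 and 42.8 CPM in LN and 35.9, 226, 164 and 53.1 CPM in VAT, and the libraries overlapped (adjusted p = 0.625).

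**Figure D4:**
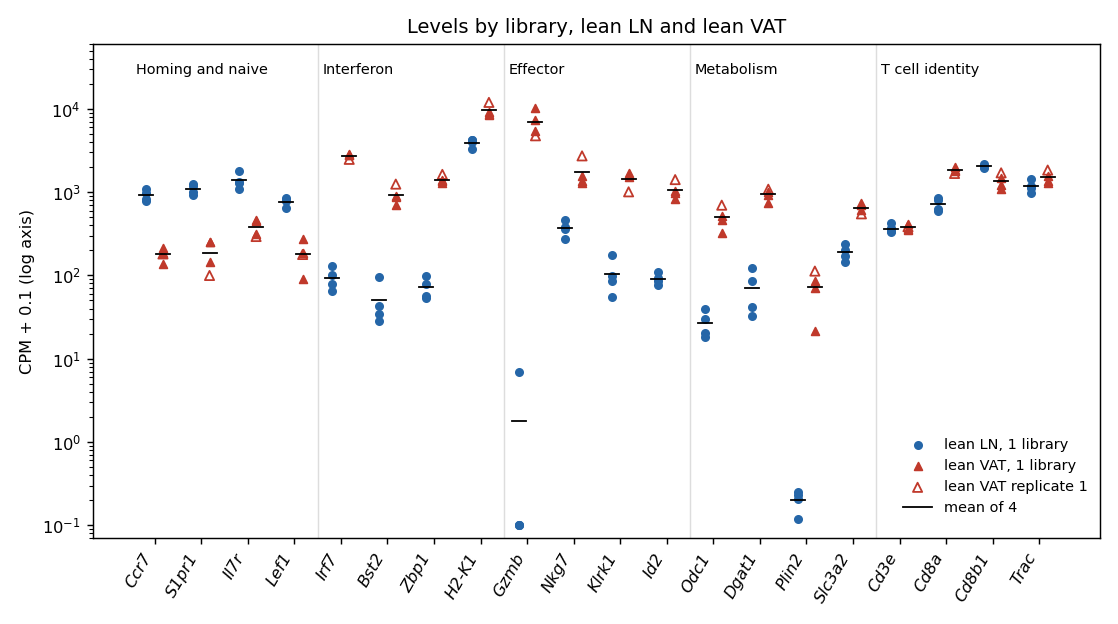
CPM of 20 genes in each lean library on a log axis after adding 0.1; blue circles are LN libraries, red triangles VAT libraries with replicate 1 drawn hollow, and lines are means of 4. The 4 homing and naive genes were lower in VAT, the interferon, effector and metabolic genes shown were higher, and Cd3e and Trac were not called.

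Some receptors for inflamed tissue rose. Of 12 inflammatory and tissue chemokine receptors, 3 rose and none fell, with a median of 2.62. Cxcr3, the receptor for the interferon-induced chemokines, was at 112, 134, 124 and 104 CPM in LN and 453, 686, 595 and 658 CPM in VAT, 5.05-fold higher (log2 2.34 ± 0.20; adjusted p = 1.58e-05, edgeR). Cxcr6, which holds T cells in peripheral tissue, was at 270.3, 239, 240.4 and 299 CPM in LN and 475, 1055, 1083 and 924 CPM in VAT, 3.38-fold higher (adjusted p = 0.000419). Ccrl2, a receptor that binds the attractant chemerin without signalling, was at 0, 0.018, 0 and 0 CPM in LN and 50.3, 74.8, 50.6 and 52.8 CPM in VAT (adjusted p = 9.08e-06). The single LN count makes the ratio of 12720.0 uncertain, with a 95% counting interval of 2283 to 502414. Of 22 residency genes 7 rose and none fell. Rgs1, a brake on chemokine receptor signalling found in resident cells, was at 28.7, 46.8, 66.6 and 71.6 CPM in LN and 428, 509, 746 and 661 CPM in VAT, 10.98-fold higher (adjusted p = 0.000419). P2rx7, the channel through which resident cells sense extracellular ATP, had 1 count in the 4 LN libraries together and stood at 115, 171, 258 and 154 CPM in VAT (adjusted p = 0.00116). Itgae, which encodes the residency integrin CD103, did not follow these genes. It was at 322, 182, 322 and 300.1 CPM in LN and 5.86, 11.7, 19.4 and 26.1 CPM in VAT, lower in all 4 VAT libraries but not called (adjusted p = 0.0925). Itgae passed in a fit of the lean libraries alone (0.00696), by DESeq2 (0.00136) and by limma-voom (0.00763). Of 19 integrins and adhesion receptors 2 rose, Jaml, a junctional adhesion receptor (26.3-fold, adjusted p = 0.0341), and Icam1, the ligand of LFA-1 (2.92-fold, adjusted p = 0.0422). Jaml lost its call without LN replicates 1 or 4 or VAT replicates 2, 3 or 4 (adjusted p = 0.0612 to 0.112), with no filter on low counts (0.0675) and in a fit of the lean libraries alone (0.195). Icam1 lost its call without LN replicates 1, 2, 3 or 4 or VAT replicates 2, 3 or 4 (adjusted p = 0.0719 to 0.135), with DESeq2-type (RLE) scaling (0.066), with no filter on low counts (0.117) and in a fit of the lean libraries alone (0.0938).

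Genes of killing rose in part of the list. Of 26 genes of cytotoxic granules and death ligands, 8 rose and none fell, with a median of 2.02. Gzmb, the granzyme that cuts caspases in target cells, was at 0, 0, 6.73 and 0 CPM in LN and 4742, 7250.4, 5349 and 10244 CPM in VAT (adjusted p = 0.00316, edgeR). Gzmc, a granzyme of strongly activated cells, had no count in LN and 91.5, 33.2, 37.3 and 67.8 CPM in VAT, at least 1085-fold higher against the floor (adjusted p = 0.000287). Nkg7, a granule membrane protein needed for release, was at 365, 382, 465 and 273 CPM in LN and 2722, 1358, 1295 and 1579.5 CPM in VAT, 4.68-fold higher (adjusted p = 9.1e-05). All 3 separated the tissues. Srgn, the proteoglycan that packs granzymes, rose 2.55-fold (adjusted p = 0.000493), and Tnfsf10, the death ligand TRAIL, was at 0.0729, 0, 0 and 0.0934 CPM in LN and 50.2, 145, 75.2 and 186 CPM in VAT (adjusted p = 0.00292; named after its values were seen). Prf1, which encodes the pore former perforin, was at 54.0, 47.7, 15.1 and 78.4 CPM in LN and 253, 178, 64.8 and 247 CPM in VAT, and 1 VAT library lay inside the LN range (adjusted p = 0.14). Gzmk, a granzyme of memory cells, was at 0, 0, 6.17 and 6.87 CPM in LN and 88.0, 111, 127 and 129 CPM in VAT without overlap and was not called (adjusted p = 0.296; named after its values were seen). Prf1 passed by DESeq2 (0.0308) and Gzmk by limma-voom (0.0137). Gzmb lost its call in a fit of the lean libraries alone (adjusted p = 0.0664) and by limma-voom (0.992).

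Of 18 NK lectin-like and related receptors, 6 rose and none fell, with a median of 4.02. In 11 every VAT library was above every LN library, against 7.24% of all genes tested. Klrk1, the activating receptor NKG2D, was at 54.8, 97.1, 178 and 84.7 CPM in LN and 1008, 1534, 1685 and 1593 CPM in VAT, 14.03-fold higher (log2 3.81 ± 0.39; adjusted p = 6.52e-05, edgeR). Klrc1, the inhibitory receptor NKG2A, was at 7.58, 26.7, 23.7 and 29.8 CPM in LN and 210.1, 362, 419.9 and 313 CPM in VAT, 14.9-fold higher (adjusted p = 5.35e-05). Both receptors were higher in all 4 VAT libraries than in any LN library. The number that rose on this list moved from 6 to 2 without LN replicate 1 and 3 without LN replicate 4. The summed level of the 8 NK cell markers, given above, was higher in every VAT library but did not pass after adjustment, and none of the 7 markers tested was called. The sum was carried by Klra9 (0 to 22.3 CPM in LN, 234 to 359 CPM in VAT) and Fcer1g (0 to 22.6 CPM in LN, 48.5 to 223 CPM in VAT). Of the defining markers, Klrb1c had no count in LN and 0 to 54.2 CPM in VAT, and Ncr1 had none in LN and at most 0.801 CPM in VAT. The part of NK cells in the receptor result was not tested. Trgc4, a constant segment of the gamma chain of the other T cell receptor type, was at 17.5, 11.7, 10.4 and 19.8 CPM in LN and 243, 327, 363 and 233 CPM in VAT, 19.7-fold higher (adjusted p = 3.45e-06; named after its values were seen).

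Of 24 transcription factors of effector cells 2 rose and none fell. By sign alone 22 of the 24 were higher in VAT, against 49.8% of all genes tested. Id2, which represses E proteins in effector cells, was at 93.4, 85.6, 110.0 and 77.1 CPM in LN and 1413, 974, 835 and 1031 CPM in VAT, 11.6-fold higher (log2 3.54 ± 0.22; adjusted p = 1.46e-06, edgeR). Hopx, a homeodomain protein of long-lived effector cells, rose 5.16-fold (adjusted p = 0.0155). Tbx21, which encodes T-bet, was at 6.57, 23.8, 45.9 and 0 CPM in LN and 301, 236, 244 and 321 CPM in VAT, without overlap and not called (adjusted p = 0.12). Its LN libraries ranged from no count to 45.9 CPM. Eomes, the related factor of memory cells, was at 98.5, 58.3, 19.7 and 13.6 CPM in LN and 5.27, 44.3, 22.8 and 13.5 CPM in VAT and overlapped (adjusted p = 0.762). Tbx21 passed by DESeq2 (0.00623), by limma-voom (0.0105) and without LN replicate 4 (0.00537). The number that rose on this list moved from 2 to 4 without LN replicate 4 or VAT replicate 1. Hopx lost its call without LN replicate 3 (adjusted p = 0.0503) and in a fit of the lean libraries alone (0.115).

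Of 7 chemokine ligands 3 rose and none fell. Ccl5, which attracts T cells and monocytes, was at 423, 558, 415 and 316 CPM in LN and 2994, 1674, 2073 and 1503 CPM in VAT, 4.81-fold higher (adjusted p = 0.000165, edgeR). Xcl1, which attracts cross-presenting dendritic cells, was at 2.01, 3.56, 6.40 and 3.90 CPM in LN and 508, 209, 146 and 318 CPM in VAT, 74.4-fold higher (adjusted p = 0.00424). Cxcl10, a ligand of CXCR3 and itself interferon-induced, was at 0.146, 0.018, 10.6 and 0 CPM in LN and 1393, 1110.5, 824 and 1062 CPM in VAT (adjusted p = 0.0346). None of the 3 overlapped between tissues. Cxcl10 lost its call without LN replicates 1, 2 or 4 or VAT replicates 1, 2, 3 or 4 (adjusted p = 0.0505 to 0.0815), with no filter on low counts (0.0699) and in a fit of the lean libraries alone (0.119). Of 12 cytokines of T cells 1 rose, Il2, the T cell growth factor, 6.81-fold (adjusted p = 0.0308). Il2 lost its call without LN replicates 1, 2, 3 or 4 or VAT replicates 2 or 3 (adjusted p = 0.0561 to 0.103), with no filter on low counts (0.259) and in a fit of the lean libraries alone (0.116). Ifng, the type II interferon, was at 0, 0, 6.87 and 0 CPM in LN and 256, 270.3, 260.5 and 242 CPM in VAT and was not called (adjusted p = 0.155). Tnf was at 9.02, 0.018, 0.0193 and 0 CPM in LN and 116, 131, 168 and 250.01 CPM in VAT and was not called (adjusted p = 0.288). For both, 1 LN library carried all or nearly all LN counts, and each passed without that library (Ifng 0.0128 without LN replicate 3, Tnf 0.0451 without LN replicate 1). Both also passed by limma-voom (0.00134 and 0.00342), and Tnf passed by DESeq2 (0.0399).

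Cytokine receptors moved in both directions. Il7r fell, as given above, and 5 of 21 receptors rose. Il2rb, the chain shared by the receptors for IL-2 and IL-15, was at 266, 174, 302 and 218 CPM in LN and 1180.1, 1334, 1035 and 1315 CPM in VAT, 5.07-fold higher (log2 2.34 ± 0.22; adjusted p = 3.18e-05, edgeR). Il2ra, the high-affinity chain CD25, had no count in LN and 8.84, 18.2, 20.2 and 44.6 CPM in VAT, at least 434-fold higher against the floor (adjusted p = 0.0127). Il18rap, the accessory chain for IL-18, was at 21.3, 16.3, 16.8 and 14.2 CPM in LN and 267, 246, 121 and 143 CPM in VAT, 11.3-fold higher (adjusted p = 0.000822). Each was above LN in all 4 VAT libraries. Ifngr1, the ligand-binding chain for interferon gamma, was at 638, 656, 836 and 617 CPM in LN and 1511, 3780.5, 3719 and 2924 CPM in VAT, with VAT replicate 1 the lowest of its group (4.35-fold, adjusted p = 9.12e-05). Il2rg, the common gamma chain, rose 1.66-fold (adjusted p = 0.00178; named after its values were seen).

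Downstream of these receptors 6 of 24 JAK, STAT and SOCS genes rose and 1 fell. Jak1, the kinase that serves both the interferon and the common gamma chain receptors, fell from 3186, 2403, 2798 and 3186 CPM in LN to 789.5, 1487, 1234 and 1232 CPM in VAT (2.44-fold lower, adjusted p = 0.0011, edgeR). Stat3, which signals for IL-6 and IL-21, was at 185, 237, 242 and 318 CPM in LN and 742, 958, 832 and 868 CPM in VAT (3.46-fold higher, adjusted p = 6.94e-05). Cish, a feedback inhibitor induced by STAT5, had no count in any LN library and 147, 321, 212 and 205 CPM in VAT, at least 4180.2-fold higher against the floor (adjusted p = 0.0116). Jak1 was the 1 member of the list lower in every VAT library.

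Of 29 genes of the T cell receptor complex and its proximal signalling 1 rose and 4 fell, with a median of -0.02. In 11 of the 29 no library of one tissue overlapped a library of the other, with 2 higher and 9 lower in VAT. Over all genes tested 7.24% were higher and 5.7% lower in this way. Cd3e, a signalling chain of the complex, was at 372, 337, 328 and 422 CPM in LN and 384, 412, 353 and 365 CPM in VAT and overlapped (adjusted p = 0.992). Cd8a was at 601, 797, 854 and 619.6 CPM in LN and 1674, 2023, 1806 and 1858 CPM in VAT, 2.56-fold higher (adjusted p = 9.1e-05), while Cd8b1, the other coreceptor chain, was at 2026, 2199.5, 2039 and 1966 CPM in LN and 1703, 1211, 1077 and 1482 CPM in VAT, 1.504-fold lower (adjusted p = 0.0179, edgeR). Both chains separated the tissues, in opposite directions. Lat, the adaptor that gathers the signalling complex, fell 1.82-fold (adjusted p = 0.00611), and Prkcq, the kinase that links the receptor to NF-kB, fell 2.02-fold (adjusted p = 0.00521). Sh2d2a, an adaptor of activated T cells, rose 2.98-fold (adjusted p = 0.000609), and Peli1, a ubiquitin ligase that restrains activation, fell 2.32-fold (adjusted p = 0.00521). Cd8b1 lost its call without VAT replicate 2 (adjusted p = 0.0524), with upper-quartile scaling (0.0975), with the stricter filter (0.0706) and in a fit of the lean libraries alone (0.125). Peli1 lost its call in a fit of the lean libraries alone (adjusted p = 0.0616).

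Early response genes gave rises and no falls. Of 23 AP-1, EGR and NR4A factors, 6 rose and none fell, with a median of 1.74. Fos, an AP-1 subunit induced within minutes of a stimulus, was at 42.8, 21.6, 63.5 and 75.6 CPM in LN and 945, 1273, 1023 and 1366 CPM in VAT, 22.6-fold higher (log2 4.50 ± 0.60; adjusted p = 0.000531, edgeR). Junb, its partner, was at 414, 351, 523 and 624 CPM in LN and 2439, 1876, 1310.2 and 1818 CPM in VAT, 3.89-fold higher (adjusted p = 4.3e-05). Neither overlapped. Dusp1, a phosphatase that ends MAP kinase signals, was at 93.3, 64.8, 67.6 and 119 CPM in LN and 241, 444, 483 and 461 CPM in VAT (4.73-fold, adjusted p = 0.000434). Of 21 genes of the NF-kB list 5 rose. Tnfaip3, the ubiquitin-editing inhibitor A20, was at 96.0, 83.7, 95 and 171 CPM in LN and 859.9, 2028, 2125 and 2209 CPM in VAT, with VAT replicate 1 well under the other 3 (16.2-fold, adjusted p = 3.18e-05). Nfkbia, the inhibitor that holds NF-kB in the cytosol, rose 2.73-fold (adjusted p = 0.0116). The number that rose on this list moved from 5 to 3 without LN replicate 4. Nfkbia lost its call in a fit of the lean libraries alone (adjusted p = 0.111).

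Inhibitory receptors gave little that passed. Of 15 checkpoint receptors 1 rose, Lag3, a ligand of MHC class II, with 0, 0.018, 0 and 0 CPM in LN and 1.90, 0.0668, 0.405 and 9.87 CPM in VAT (adjusted p = 0.015, edgeR). Lag3 lost its call without LN replicates 1, 3 or 4 (adjusted p = 0.0564 to 0.0611), with no filter on low counts (0.077) and in a fit of the lean libraries alone (0.092). The median of the list was 2.51 on the log2 scale. In 8 of the 15 every VAT library was above every LN library, against 7.24% of all genes tested. Pdcd1, which encodes PD-1, was at 11.9, 0, 41.6 and 0 CPM in LN and 58.2, 172, 145 and 202 CPM in VAT, and Ctla4 at 0.0437, 0.0718, 1.04 and 36.6 CPM in LN and 74.2, 99.5, 77.2 and 57.7 CPM in VAT. Neither overlapped and neither was called (adjusted p = 0.558 and 0.622), and both were named after their values were seen. They passed by limma-voom (0.0166 and 0.032). Tox, a factor of exhausted cells, was at 30.4, 18.4, 21.1 and 30.1 CPM in LN and 59.4, 19.8, 13.1 and 14.1 CPM in VAT and overlapped (adjusted p = 1). Among costimulatory receptors Tnfrsf18, which encodes GITR, rose 4.36-fold from 48.4 to 119 CPM to 282 to 576 CPM (adjusted p = 0.00164).

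Of 20 galectins, S100 proteins and annexins 6 rose and none fell. Lgals1, a secreted lectin of activated T cells, was at 40.7, 59.4, 34.6 and 65.9 CPM in LN and 1493, 479, 629.8 and 601 CPM in VAT, 15.96-fold higher (adjusted p = 7.28e-05, edgeR). Lgals3, a related lectin, was at 10.5, 35.9, 87.0 and 66.6 CPM in LN and 894, 569, 665 and 692 CPM in VAT, 14.1-fold higher (adjusted p = 0.0011). S100a6, a calcium-binding protein, rose 5.83-fold (adjusted p = 0.000725). In each, every VAT library was above every LN library, and in Lgals1 VAT replicate 1 was the highest. Of 9 genes of the Ly6 family 4 rose and 1 fell. Ly6c2, a marker of memory cells and monocytes, rose 7.62-fold (adjusted p = 9.12e-05), and Ly6a, the stem cell antigen Sca-1 that interferon induces, 6.79-fold (adjusted p = 0.00172). The member that fell, Ly6d, is a B cell antigen with no count in any VAT library and 12.7, 16.9, 68.8 and 69.8 CPM in LN.

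In metabolism few members of each list were called (over all genes tested, 2.12% rose and 0.919% fell). Plin2, which coats lipid droplets, was at 0.131, 0.108, 0.0193 and 0.149 CPM in LN and 113, 70.2, 85.6 and 21.3 CPM in VAT, 691-fold higher (log2 9.43 ± 1.23; adjusted p = 0.000434, edgeR). Dgat1, the enzyme of the last step of triglyceride synthesis, was at 32.5, 123, 85.0 and 41.8 CPM in LN and 1083, 935, 1011 and 735 CPM in VAT, 13.3-fold higher (adjusted p = 0.000493). Both separated the tissues fully, and Plin2 was next to absent from LN. The other 19 of the 21 genes of fatty acid uptake and storage tested were not called, and the median of the list was 0.14. Cd36, a fatty acid transporter, had no count in LN and 0, 8.46, 0 and 12.04 CPM in VAT and did not pass the count filter. Pparg, the master regulator of fat cells, reached no more than 0.0226 CPM in any library. Odc1, which makes the polyamine putrescine, was at 20.3, 18.1, 39.7 and 29.8 CPM in LN and 697, 509.7, 468 and 319 CPM in VAT, 18.5-fold higher (adjusted p = 6.67e-06). Slc3a2, the heavy chain of amino acid transporters, was at 203, 170.4, 145 and 241 CPM in LN and 548, 734, 693 and 618 CPM in VAT, 3.41-fold higher (adjusted p = 0.000493). These were the 2 calls among 24 genes of polyamine, amino acid and one-carbon metabolism.

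Of 18 genes of mitochondrial fatty acid oxidation 1 fell, Acadm, the dehydrogenase of medium-chain fatty acids, from 212, 252, 216 and 164 CPM to 100.5, 42.9, 49.3 and 102 CPM (2.87-fold lower, adjusted p = 0.017, edgeR). Of 25 genes of glycolysis and hypoxia 1 fell, Pdk1, the kinase that closes pyruvate off from mitochondria, from 288, 468, 423 and 435 CPM to 9.75, 102, 86.2 and 95.7 CPM (5.49-fold lower, adjusted p = 0.0232). Both were lower in all 4 VAT libraries. Acadm lost its call without VAT replicate 3 (adjusted p = 0.0601) and in a fit of the lean libraries alone (0.0803). Pdk1 lost its call without LN replicates 2, 3 or 4 or VAT replicate 3 (adjusted p = 0.0523 to 0.0601) and in a fit of the lean libraries alone (0.121). None of 32 genes of cholesterol metabolism and none of 13 mitochondrially encoded genes was called. Of 67 nuclear-encoded genes of the respiratory chain 2 rose, near the share of 2.12% over all genes tested. Cycs, which encodes cytochrome c, was at 58.3, 55.9, 48.2 and 50.5 CPM in LN and 262, 149, 184 and 167 CPM in VAT (3.58-fold, adjusted p = 0.000516), and Cox6b1, a subunit of cytochrome c oxidase, rose 2.33-fold (adjusted p = 0.0346). The number that rose on this list moved from 2 to 1 without LN replicates 1, 3 or 4 or VAT replicate 1. Cox6b1 lost its call without LN replicates 1, 3 or 4 or VAT replicate 1 (adjusted p = 0.0545 to 0.113), with upper-quartile scaling (0.0534), with no filter on low counts (0.0868) and in a fit of the lean libraries alone (0.167).

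Slc28a2b, a nucleoside transporter, fell 18.2-fold from 2703, 2135, 2286 and 2374 CPM to 25.2, 157, 163 and 176 CPM (adjusted p = 0.000313, edgeR), and Atp1b3, a subunit of the sodium pump, fell 4.61-fold from 2104, 2085, 1978 and 1939.9 CPM to 189.6, 475, 475 and 620.5 CPM (adjusted p = 0.000446). Plac8, a cysteine-rich protein of effector cells, rose 11.8-fold from 137, 186, 149 and 67.9 CPM to 2235, 1191, 1725 and 1222 CPM (adjusted p = 2.77e-05). These were on no list and were named after their values were seen. In the first of them VAT replicate 1 was the lowest of all libraries.

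Of 81 cytosolic ribosomal protein genes 4 fell and none rose, with a median of -0.43. By sign alone 71 of the 81 were lower in VAT, while 49.8% of all genes tested were higher. Rps6, the subunit phosphorylated on growth signals, was at 591, 963, 535 and 541 CPM in LN and 278, 274, 297 and 302 CPM in VAT, 2.29-fold lower (adjusted p = 0.0011, edgeR), and Rpl4 fell 2.17-fold (adjusted p = 0.00155). The number that fell on this list moved from 4 to 26 without VAT replicate 1. The share of counts in these genes did not pass (exact permutation test, p = 0.114, adjusted 0.206) and was 4.21% in VAT replicate 1 and 1.73% to 1.99% in the other VAT libraries, against 3.19% to 5.47% in LN. Ccnd2, cyclin D2 of the G1 phase, was at 163, 164, 124 and 168 CPM in LN and 1728, 917, 747 and 739 CPM in VAT, 6.69-fold higher (adjusted p = 7.63e-05) and without overlap. Of 36 genes of DNA replication and mitosis 1 rose, near the share of 2.12% over all genes tested. It was Hmgb2, a chromatin protein, 1.69-fold (adjusted p = 0.00804). Hmgb2 lost its call in a fit of the lean libraries alone (adjusted p = 0.0545).

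Stress and survival genes moved in small numbers. Hspa8, the constitutive HSP70 chaperone, was at 613, 559, 531 and 512 CPM in LN and 1197, 1724, 1558 and 1711 CPM in VAT, 2.80-fold higher (adjusted p = 0.000144, edgeR), and 3 of 21 heat shock genes rose in all. Of 17 genes of the BCL2 family 5 rose and 1 fell. Among the rises were the 3 near-identical A1 genes, survival proteins induced by NF-kB, between which reads cannot be assigned with certainty. Bcl2a1d was at 9.91, 12, 9.05 and 8.01 CPM in LN and 150.0, 77.2, 75.6 and 69.6 CPM in VAT, 9.56-fold higher (adjusted p = 0.000461). Bcl2, a survival protein, rose 2.97-fold (adjusted p = 0.0333), and Bcl2l11, the pro-death protein BIM, rose 3.31-fold (adjusted p = 0.0454). Both were named after their values were seen. Bbc3, the pro-death protein PUMA, fell 4.12-fold (adjusted p = 0.0293). Bbc3 lost its call without LN replicates 1, 3 or 4 or VAT replicates 2, 3 or 4 (adjusted p = 0.0579 to 0.092) and in a fit of the lean libraries alone (0.0814). Bcl2 lost its call without LN replicates 1, 3 or 4 or VAT replicates 1, 3 or 4 (adjusted p = 0.0501 to 0.115). Bcl2 also lost it with no filter on low counts (0.0801) and in a fit of the lean libraries alone (0.0778). Bcl2l11 lost its call without LN replicates 1, 2, 3 or 4 or VAT replicates 1, 2 or 3 (adjusted p = 0.078 to 0.141). Bcl2l11 also lost it with RLE scaling (0.0545), with no filter (0.121) and in a fit of the lean libraries alone (0.0603). The number that rose on this list moved from 5 to 2 without LN replicates 1 or 4 and 3 without LN replicate 3 or VAT replicates 1 or 3. Gadd45g, a stress sensor that feeds the p38 kinase, was at 10.7, 57.4, 16.6 and 13.5 CPM in LN and 479.8, 229, 156 and 176 CPM in VAT, 10.6-fold higher (adjusted p = 0.00289). Nr3c1, the glucocorticoid receptor, rose 4.31-fold (adjusted p = 0.0011), while its target Tsc22d3, which encodes GILZ, fell 2.16-fold (adjusted p = 0.0148). Tsc22d3 lost its call without LN replicate 4 or VAT replicate 3 (adjusted p = 0.0534 to 0.0544) and in a fit of the lean libraries alone (0.092).

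Genes of other blood cells made up part of the falls. Of 11 B cell markers tested 7 fell and none rose, with a median of -8.70. Ighm, the heavy chain of IgM, was at 1379, 1269, 1612 and 1866 CPM in LN and 85.6, 187, 83.2 and 137 CPM in VAT, 12.4-fold lower (adjusted p = 3.08e-05, edgeR). H2-Aa, an MHC class II chain, was at 39.1, 118, 238 and 224 CPM in LN and no more than 0.0334 CPM in VAT (adjusted p = 0.00197), and Cd74, the invariant chain of class II, was at 128, 361, 691 and 807 CPM in LN and 27.6, 31.2, 33.8 and 44.6 CPM in VAT (adjusted p = 0.00141). In these 3 genes LN replicate 1 or 2 was the lowest LN library. Cd74 lost its call by limma-voom (adjusted p = 0.261). H2-Aa and Cd74 were the 2 calls among 9 dendritic cell and MHC class II markers tested. In 4 of the 9 every VAT library was below every LN library, against 5.7% of all genes tested. In 2 every VAT library was above, against 7.24%. These were Xcr1 (0.0560 to 5.28 CPM in LN, 6.98 to 34.4 CPM in VAT) and Clec9a (0 to 0.377 and 0.475 to 2.09 CPM). Both were named after their values were seen. Cd4 reached 4.76 CPM in 1 LN library and no more than 0.0241 CPM elsewhere. Of 4 CD4 and regulatory T cell markers tested 1 rose. It was Zbtb7b (0.187 to 0.377 CPM in LN, 2.70 to 26.4 CPM in VAT, adjusted p = 0.0196, edgeR). Zbtb7b lost its call without any 1 LN library (adjusted p = 0.0525 to 0.0792). It also did with no filter (0.14) and in a fit of the lean libraries alone (0.0535). Ikzf2 (0 to 30.4 and 39.3 to 240 CPM) and Ctla4 were also higher in every VAT library, and Cd40lg was lower. Ikzf2 and Cd40lg were named after their values were seen.

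Other genes were among the largest changes. Mlkl, the pore former of necroptosis, had no count in LN and 111, 12.8, 37.9 and 3.59 CPM in VAT (adjusted p = 0.0252, edgeR), and Oas2, a member of the antiviral list that makes the signal for RNase L, had 2 counts in all 4 LN libraries and 82.7, 69.7, 55.6 and 98.4 CPM in VAT (adjusted p = 0.0231). Adap1, a regulator of ARF GTPases, and Pf4, a chemokine known from platelets, had no count in LN and 12.2 to 76.7 CPM and 8.11 to 26.2 CPM in VAT (adjusted p = 0.0373 and 0.0437). In these 4 genes every VAT library was above every LN library. Mlkl lost its call without LN replicates 1, 2, 3 or 4 (adjusted p = 0.0586 to 0.0653) and in a fit of the lean libraries alone (0.0512). Oas2 lost its call without LN replicates 1, 2, 3 or 4 (adjusted p = 0.0687 to 0.0845). Adap1 lost its call without any 1 of the 8 libraries (adjusted p = 0.0601 to 0.0908) and with no filter on low counts (0.0615). Pf4 lost its call without any 1 of the 8 libraries (adjusted p = 0.0735 to 0.0956) and with no filter on low counts (0.0998). On the other side, Fcmr, the Fc receptor for IgM, had no count in VAT and 17.3, 50.2, 116 and 133 CPM in LN (adjusted p = 0.00202). Nme4, a mitochondrial nucleoside diphosphate kinase, had no count in VAT and 17.1, 42.2, 10.2 and 11.4 CPM in LN (adjusted p = 0.00107), and Nek3, a kinase, had none in VAT and 2.46, 19.99, 11.01 and 8.09 CPM in LN (adjusted p = 0.00204). Cacna2d4, a calcium channel subunit, had 2 counts in all VAT libraries and 60.7, 55.7, 67.4 and 26.3 CPM in LN (adjusted p = 0.000493). Blk, a kinase of B cells, had 1 count in VAT and 38.6, 11.03, 29.2 and 93.2 CPM in LN (adjusted p = 0.00559), so that 2 of these 5 falls, with Fcmr, were genes known from B cells. In these falls every LN library was above every VAT library. Tle1, a corepressor, and Chchd6, a protein of mitochondrial cristae, were at 25.0 to 69.5 CPM and 6.02 to 22.9 CPM in LN and at 2 counts and no count over all VAT libraries, respectively (adjusted p = 0.0231 and 0.0451). Tle1 lost its call without VAT replicates 1, 2, 3 or 4 (adjusted p = 0.0653 to 0.0787). Chchd6 lost its call without any 1 of the 8 libraries (adjusted p = 0.0762 to 0.0932) and with no filter on low counts (0.104).

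The same contrast on HFD called 714 genes (4.56% of genes tested), 420 rises and 294 falls (2.68% and 1.88%). Of the 476 genes called in lean mice, 471 had the same sign on HFD, and 217 had a change on HFD at least as large. The 476 were selected by their change in lean mice, and the share of equal signs over all genes tested was not taken. The difference between the tissue effects of the diets was tested as an interaction, and 3 genes (0.0191%) passed, none of them among the 476. Cyb5r1, a reductase of cytochrome b5, averaged 39.7 CPM in lean VAT, 73.7 CPM in lean LN, 76.4 CPM in HFD LN and 0.00545 CPM in HFD VAT (difference 12.28 on the log2 scale, adjusted p = 0.00878, edgeR). Ndufaf2, an assembly factor of respiratory complex I, and Traj61, a joining segment of the T cell receptor alpha chain, were the other 2 (11.34 and 9.75, adjusted p = 0.0476 and 0.0461). In all 3 the VAT libraries on HFD were the low group, and the lean contrast itself was not called. Leaving out 1 library moved this count widely. No gene passed without lean LN replicate 1 or 3, and 1 gene passed without lean LN replicate 2, lean VAT replicate 2, 3 or 4 or HFD LN replicate 1 or 4. It was 2 without lean LN replicate 4 or HFD LN replicate 3, 3 without HFD LN replicate 2, 17 without lean VAT replicate 1, and 7, 12, 6 and 26 without HFD VAT replicates 1 to 4. The 5 lean calls with the opposite sign on HFD were Prph, Kcnk7, Tmem268, Selenot-ps and Gm47817, named after their values were seen, and none of them was called on HFD or passed the interaction (adjusted p = 0.141 to 0.428). The self-test of this fit recovered 12% of simulated 4-fold and 46% of simulated 64-fold changes for the lean contrast, so a gene not called may still differ.

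**Figure D5:**
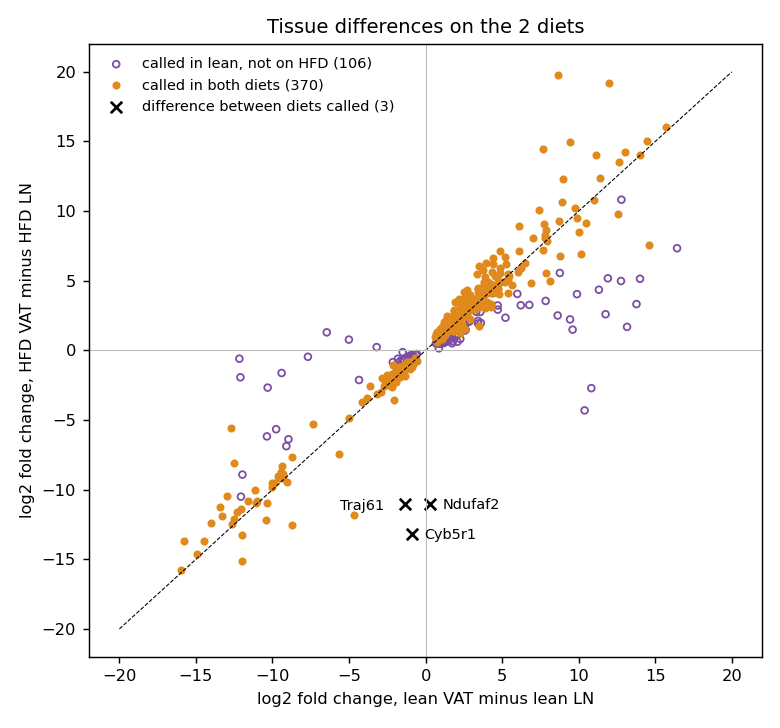
Log2 fold change of VAT over LN on HFD against that in lean mice, for the 476 genes called in lean mice and the 3 genes whose difference between diets was called (crosses); the dashed line marks equal changes. Filled points (370) were called on both diets and open points (106) in lean mice alone, a split by threshold and not a test, and the 3 crosses lie far below the line.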

How the data were processed

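RNA of T cells was sequenced in 16 libraries, and the authors deposited raw counts per gene, whole numbers in 54456 rows that were not normalised. Per the submitters' processing notes kallisto 0.42.4, DESeq2 and the build GRCh38 were used. That build is human while the gene names are mouse, and the step from kallisto estimates to whole counts was not given in the sources used here. Per the labels, a Takara SMART-Seq v4 kit was used, but other protocol fields describe human synovial fibroblasts and a different kit, and they were not relied on. No label says that counting used strand, so antisense and overlapping genes cannot be told apart.

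Genes that passed filterByExpr (15675) were tested with edgeR 4.0.16 in R 4.3.3, with TMM scaling, robust dispersions and 1 fit of all 4 groups. Levels are CPM on TMM-scaled totals. Reads come from amplified cDNA without molecular identifiers, so counting intervals (exact, 95%) and floors of 3 counts cover counting error only. Named genes were 25 panel genes, the 10 largest rises and falls with at least 5 CPM, up to 3 members per list and direction and up to 6 per sign of the difference between diets, of which 149 are used and 4 are not reported here; the other 67, and the single markers of other cell types given beside the marker sums, were named after their values were seen. The gene lists (59, with 1243 genes, of which 1101 were tested) and the comparison were chosen with earlier results of these data known. The fit was tested on simulated data with 200 changed genes. Alternatives were other scalings, filters, DESeq2 1.42.0, limma-voom (limma 3.58.1), a fit of the lean libraries alone, leaving out each library and a replicate block.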

Additional observations from a re-analysis of the deposited data

Results flagged for a closer look

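In 56 of 422 values examined (named genes and library measures in each group of 4), 13.3%, 1 library lay far from the other 3 of its group by Dixon's test. Chance gives about 1 in 20 for independent, normally distributed values. CPM need not be so distributed, and 3 libraries at 0 with 1 above always pass, so the size of an excess cannot be read here. VAT replicate 1 held 23 of the 56, LN replicate 2 held 12 and LN replicate 3 held 10. In VAT replicate 1 these were the percent of genes missing (13.3%), the percent of mitochondrially encoded counts (0.176%), the percent of ribosomal protein counts (4.21%) and the percent of counts in the 50 most abundant genes (16.7%). High in VAT replicate 1 were Bcl2a1d (150.0 CPM, others 69.6 to 77.2), Isg15 (1207 CPM, others 570.4 to 649.8), Lgals1 (1493 CPM, others 479 to 629.8), Ndufaf2 (56.4 CPM, others 6.73 to 12.4) and Nfkbia (1389 CPM, others 719 to 819). Also high there were Prph (32.0 CPM, others 7.67 to 11.7), Psmb10 (904 CPM, others 477 to 533), Spry2 (72.6 CPM, others 4.83 to 9.82) and Tnfrsf18 (576 CPM, others 282 to 301). Also high there were Tox (59.4 CPM, others 13.1 to 19.8) and Zbtb7b (26.4 CPM, others 2.70 to 6.24). Low in VAT replicate 1 were Dusp1 (241 CPM, others 444 to 483), Ifi211 (2.06 CPM, others 11.2 to 11.6), Irf9 (156 CPM, others 388 to 419), Sla (188 CPM, others 566 to 613) and Slc28a2b (25.2 CPM, others 157 to 176). Also low there were Tgtp2 (543 CPM, others 1304 to 1338), Tnfaip3 (859.9 CPM, others 2028 to 2209) and Txnip (341 CPM, others 599.6 to 644). In LN replicate 2 these were the percent of genes missing (4.95%) and the percent of ribosomal protein counts (5.47%). High in LN replicate 2 were Cd4 (4.76 CPM, others 0 to 0.0193), Cox6b1 (231 CPM, others 146 to 157), Gadd45g (57.4 CPM, others 10.7 to 16.6), Irf9 (162 CPM, others 55.3 to 66.6) and Mx1 (3.86 CPM, others 0 to 0). High in LN replicate 2 was Rps6 (963 CPM, others 535 to 590.5). Low in LN replicate 2 were Cd247 (349 CPM, others 396 to 402), Itgae (182 CPM, others 300.1 to 322), Satb1 (497 CPM, others 727 to 773) and Tle1 (25.0 CPM, others 62.8 to 69.5). High in LN replicate 3 were Cxcl10 (10.6 CPM, others 0 to 0.146), Gbp10 (10.0 CPM, others 1.15 to 2.50), Gimap7 (272 CPM, others 146 to 159.9), Gzmb (6.73 CPM, others 0 to 0) and Ifng (6.87 CPM, others 0 to 0). Also high there were Isg15 (2.98 CPM, others 0 to 0), Lilrb4a (8.11 CPM, others 0 to 0.251), Serpina3f (0.271 CPM, others 0 to 0) and Zeb2 (4.62 CPM, others 0 to 0). Low in LN replicate 3 was Ccnd2 (124 CPM, others 163 to 168). High in other libraries were Ccrl2 (74.8 CPM in VAT replicate 2, others 50.3 to 52.8), Cd79a (1.04 CPM in VAT replicate 3, others 0 to 0.0241), Ctla4 (36.6 CPM in LN replicate 4, others 0.0437 to 1.04), Gvin1 (209 CPM in VAT replicate 4, others 161 to 165) and Ly6c2 (1641 CPM in VAT replicate 4, others 1027 to 1131). Further high values were Ms4a1 (0.0668 CPM in VAT replicate 2, others 0 to 0), Tnf (9.02 CPM in LN replicate 1, others 0 to 0.0193) and Tnfaip3 (170.5 CPM in LN replicate 4, others 83.7 to 96.0). Low in other libraries were H3f3b (1012 CPM in LN replicate 1, others 1389 to 1457), Irgm1 (66.8 CPM in LN replicate 1, others 148 to 164) and Relb (44.6 CPM in LN replicate 4, others 82.4 to 87.5).

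The tissue effect (VAT minus LN, log2) differed between the diets in 3 genes by the edgeR interaction test. It was higher in lean mice than on HFD by 12.28 for Cyb5r1, by 11.34 for Ndufaf2 and by 9.75 for Traj61 (adjusted p = 0.00878, 0.0476 and 0.0461). It was -0.89, 0.30 and -1.32 in lean mice, where none of the 3 was called, and -13.17, -11.03 and -11.06 on HFD.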

How the results depend on the processing

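No gene called in the lean comparison changed sign under any of the 17 alternatives. DESeq2 called 1569 genes (907 higher, 662 lower) and limma-voom 1373 (853 higher, 520 lower), against 476 (332 and 144), so that 57.8% and 62.1% of calls were higher in VAT against 69.8%; of the 476, they kept 471 and 465. A fit of the lean libraries alone called 373 genes (244 higher, 129 lower) and kept 290 of the 476. With no filter on low counts 218 genes rose, from 33950 tested. Leaving out 1 library gave 330 to 510 calls (224 to 337 higher, 106 to 173 lower). No label gives pairs, so the replicate numbers are not taken as pairs. Deviations of lean libraries correlated at -0.08 to 0.02 for the same number and at -0.058 to 0.098 for unequal numbers. These correlations cannot tell whether 2 libraries share a mouse. With the replicate block 195 genes were called (148 higher, 47 lower), 189 of them among the 476.

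For the difference between the diets, 3 genes higher and 0 lower, DESeq2 gave 635 (448 and 187), limma-voom 6 (5 and 1), upper-quartile scaling, no filter and the stricter filter 1 each, and the replicate block 0. Without 1 library it gave 0 to 26 (0 to 25 higher, 0 to 1 lower). At an unadjusted p under 0.05, 965 genes differed in edgeR. RLE scaling moved the median of this difference over all genes from 0.11 to 0.01.

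Signs turned in 3 genes that were not called. Cd3e was at -0.025 with RLE scaling, -0.025 by DESeq2, -0.014 with no filter, and -0.00088 (LN replicate 3) to 0.13 without 1 library. Tox was at -0.032 with RLE scaling, -0.032 by DESeq2, -0.0058 with no filter, -0.18 with the replicate block, -0.62 by limma-voom, and without 1 library -0.67 (VAT replicate 1) to 0.32, with -0.04 without LN replicate 2. Ndufaf2 was at -0.10 with the replicate block, -0.36 by limma-voom and -0.77 (VAT replicate 1) to 0.72 without 1 library. Without VAT replicate 1, VAT minus LN in genes with a count turned to 23 genes and in the percent of genes missing to -1.06; without 1 library these ranged from -890 to 23 genes and from -1.06 to 3.09. With plain totals, VAT minus LN in the marker sums was -2418.4 (B cells), -130.6 (adipose stroma) and 470.2 (NK cells). The exact permutation p of each stayed at 0.0286, as with TMM scaling. Adjustment there ran over the 4 marker sums alone instead of 9 measures, which gave 0.0381 instead of 0.0643. For the changes of sign the cause was not tested. Of 195 named genes called, 96 kept their call in all alternatives and 139 in every fit without 1 library. In the fit of the lean libraries alone 59 of the 195 lost their call. With the replicate block 89 of the 195 lost their call, a loss that the notes by gene leave out. Among them were Ube2l6 (edgeR adjusted p = 0.152), Gzmc (0.273), Cish (0.114), Il2ra (0.158), Fcmr (0.273), Nek3 (0.392), Ly6d (0.362) and Xcl1 (0.0941). Depth limits the size of change in the 75 called genes whose lower tissue held at most 3 counts over its 4 libraries.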
